A study of Mus musculus with 12 samples.

Results

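The genes described here encode the machinery that copies DNA and the regulators that carry a cell from G1 into S phase. The set holds 41 genes chosen by symbol, each required to have at least 10 counts in at least 3 libraries, out of 48709 genes in the deposited table. All 41 were found, all met that minimum and all were among the 17294 genes with enough counts to be tested. Bulk RNA was sequenced from pancreatic islets of female NSG mice, a strain that lacks mature B, T and NK cells but keeps macrophages, and every mouse carried RIP-DTR, labelled Htz (read here as heterozygous). In RIP-DTR mice the rat insulin promoter drives a receptor for diphtheria toxin, so that the toxin reaches insulin-producing beta cells. CTRL libraries came from mice whose treatment is labelled none, so every group carried the transgene, and no toxin-treated mouse without it is among these samples. The other libraries came from mice given DT, read here as diphtheria toxin, and carry the label 1, 3 or 5 DPA, taken to mean days after ablation. Each of the 4 groups had 3 libraries. The sources used here give no ages, doses or pooling of animals, and no source says whether each library stands for its own animal. The p-values therefore reflect the spread between libraries alone, which may be technical.

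Replication is prepared in G1, when the origin recognition complex, Cdc6 and Cdt1 load the Mcm2 to Mcm7 helicase onto DNA, a step called licensing. In S phase the kinases Cdc7 and cyclin E with Cdk2 fire the licensed origins, Cdc45 and the GINS complex join the helicase, and polymerases copy the strands behind the sliding clamp PCNA. Transcription of most of these genes is driven by E2F factors once the retinoblastoma proteins that hold them back are phosphorylated. Adult islet cells divide rarely, and the transcripts of these genes are commonly read as a sign of cells in late G1 or S phase.

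Because E2F binding is the feature these promoters are known for, RefSeq promoter windows (build GRCm38.p6, 250 bases before to 50 after each annotated start) were searched for exact copies of TTTCCCGC and TTTGGCGC on either strand. No 2 copies in these genes shared bases. Of the 41 genes, 34 had a window and 11 of those (32.4%) held a motif, against 1.80% of 27025 genes with a window and 3.00% of the 12606 such genes that were tested. The 11 were Cdc6, Cdt1, Mcm3, Mcm5, Mcm6, Mcm7, Gins3, Pola1, Pold1, Rfc3 and E2f2. A match is a description of the letters and not a measured binding site. The stretches around the motif are printed for the 6 genes that were lower at 1 DPA or higher at 5 DPA and had the smallest p for 5 against 1 DPA, 5′ to 3′ along the gene, with the motif in capitals.
Mcm5, chr8:75109314-75109413, plus strand: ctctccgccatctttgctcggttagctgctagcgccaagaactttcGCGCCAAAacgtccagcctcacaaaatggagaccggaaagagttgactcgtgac
Mcm3, chr1:20820275-20820304, minus strand: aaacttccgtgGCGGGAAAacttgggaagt
Mcm3, chr1:20820263-20820285, minus strand: acttgggaagtTTTGGCGCcaag
Cdt1, chr8:122568036-122568064, plus strand: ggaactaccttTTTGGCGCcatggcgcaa
Gins3, chr8:95633507-95633536, plus strand: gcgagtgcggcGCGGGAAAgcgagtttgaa
Mcm7, chr5:138172030-138172059, minus strand: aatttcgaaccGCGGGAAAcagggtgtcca
Pola1, chrX:93632240-93632339, minus strand: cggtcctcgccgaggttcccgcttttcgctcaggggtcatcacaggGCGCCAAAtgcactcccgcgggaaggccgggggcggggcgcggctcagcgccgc
In GENCODE M21 the Mcm5 and Pola1 motifs lie upstream of the gene, and those of Mcm3, Cdt1, Gins3 and Mcm7 lie in an exon of at least 1 transcript of the gene. Mcm3 holds both motifs, 1 on each strand, within its first transcribed bases. The Mcm7 motif also falls within the annotated bounds of Ap4m1, the neighbour on the other strand, and the Cdt1 motif within those of Gm20388.

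**Figure D1:**
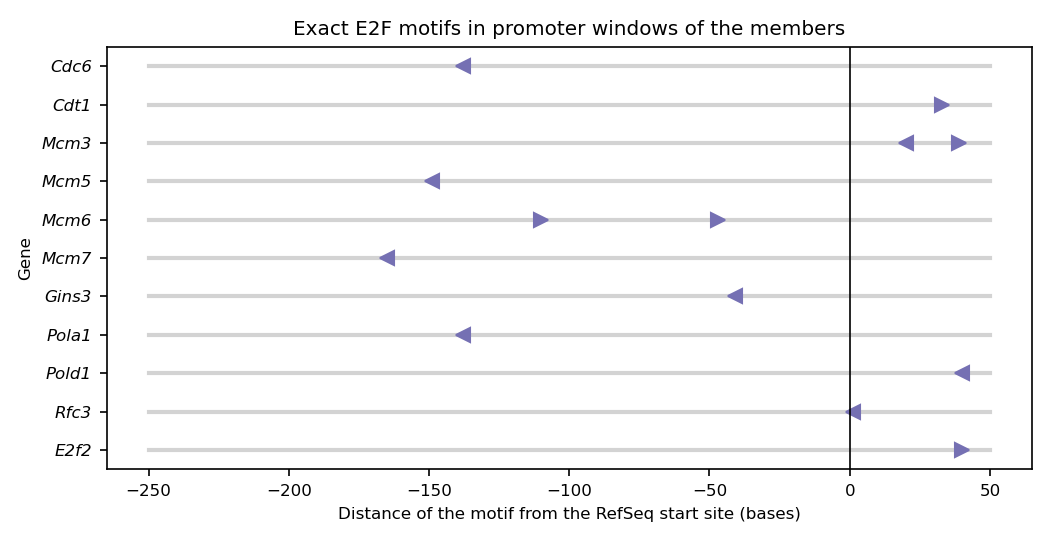
Positions of the exact E2F motifs in the promoter windows of the 11 genes that hold one, as bases from the RefSeq start site (x axis), with triangles pointing along the strand of the motif relative to the gene. Mcm3 and Mcm6 hold 2 copies each, and the copies of Cdt1, Mcm3, Pold1, Rfc3 and E2f2 lie at or after the start.

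Libraries held 29867083 to 50012558 counts. Beta cell markers, led by the insulin genes, summed to 105286 to 205924 CPM (counts scaled to library size by TMM) in the 12 libraries, so the defining genes of the labelled islets were present. Acinar markers, from the surrounding exocrine pancreas, ranged from 3691 to 55512 CPM, and none was called in a comparison with CTRL. CTRL replicate 3 stood apart from the other controls: its first principal component score was -7.03 against -72.1 and -55.3. Its macrophage markers summed to 142 CPM against 590 and 384, and its stromal markers to 507 against 1761 and 1397. The counts of calls against CTRL are also given without it.

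Summed over the 41 genes, CPM was 411, 365 and 373 in CTRL, 338, 320 and 336 at 1 DPA, 417, 388 and 403 at 3 DPA and 666, 499 and 510 at 5 DPA. The 1 DPA libraries were the lowest and the 5 DPA libraries the highest, with no overlap with any other group, while CTRL and 3 DPA overlapped. Gene by gene, 31 of 41 had their lowest group mean at 1 DPA and 36 their highest at 5 DPA. The same counts were not made over all genes tested, so no share stands beside them. Mcm10, Rfc3, Tk1 and Ccne1 had their highest mean at 1 DPA. Over the 4 groups together 35 of 41 differed (edgeR quasi-likelihood F-test, adjusted p under 0.05), where 57.4% of all genes tested did. The 6 that did not were Orc1, Cdc7, Pold1, Ccne1, E2f2 and Tipin. In these bulk samples fewer cells in the cycle and less RNA per cell cannot be told apart.

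**Figure D2:**
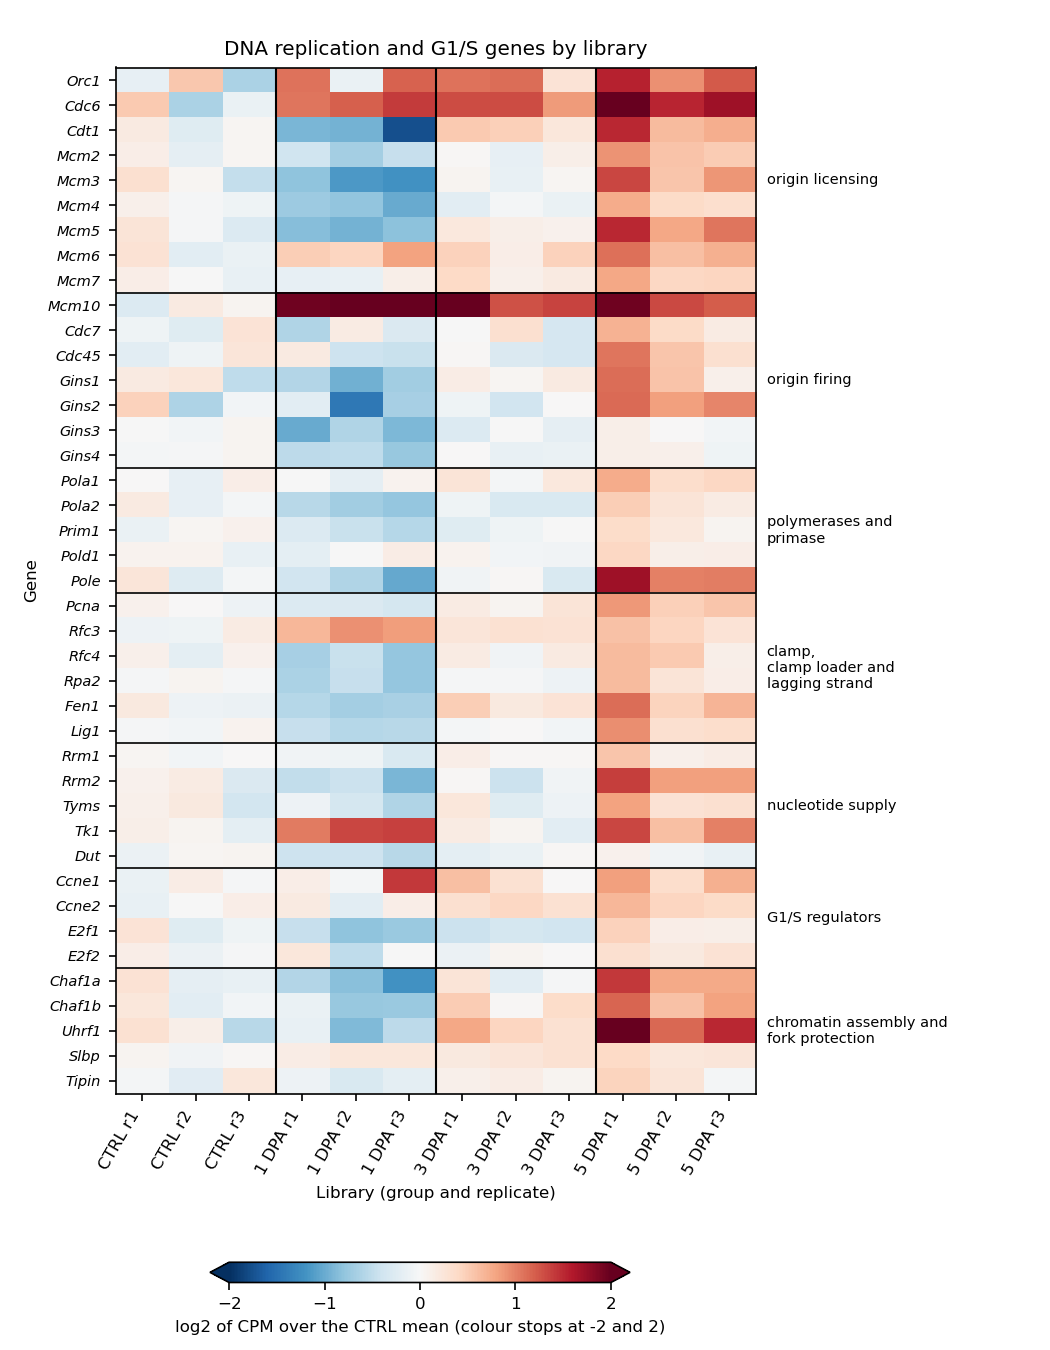
Level of each of the 41 genes (rows, grouped by role) in each of the 12 libraries (columns), as log2 of CPM over the CTRL mean, red above and blue below. Most rows are blue at 1 DPA and red at 5 DPA, rows of Mcm10, Tk1, Rfc3 and Cdc6 are red at 1 DPA, and 5 DPA replicate 1 is the reddest 5 DPA column.

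On the scale of TPM, which divides by transcript length, the authors' deposited values allow different genes to be compared. There the control islets held most Dut (22.0 ± 1.69 TPM, mean ± SD, n = 3), Pcna (20.5 ± 1.55 TPM) and Tipin (19.1 ± 3.96 TPM). Dut encodes the enzyme that keeps uracil out of DNA, Pcna the sliding clamp and Tipin a fork protection factor. These 3 overlap within their SDs. The least abundant were Orc1 (0.231 ± 0.0824 TPM), Mcm10 (0.370 ± 0.0479 TPM), Cdc6 (0.559 ± 0.243 TPM) and Pole (0.674 ± 0.143 TPM). Among the helicase subunits Mcm2 was highest in CTRL (10.6 ± 1.67 TPM), Mcm6, Mcm4 and Mcm7 lay within its spread (10.04 ± 2.29, 9.42 ± 0.856 and 9.07 ± 0.988 TPM), and Mcm3 (6.44 ± 1.74 TPM) and Mcm5 (4.66 ± 0.897 TPM) were lowest.

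At 1 DPA more of the replication genes fell than rose. Of the 41 genes 19 were lower than in CTRL, 6 were higher and 16 did not pass the threshold, against 22.4% and 29.2% of all genes tested, and their median log2 fold change was -0.46 beside -0.05 over all genes. The licensing factor Cdt1 and the helicase genes Mcm3, Mcm5, Mcm4 and Mcm2 fell, as did the clamp gene Pcna and the genes that finish the lagging strand, Fen1 and Lig1. Mcm10, Tk1, Cdc6, Rfc3, Mcm6 and Slbp rose. Without CTRL replicate 3 the counts were 20 lower and 5 higher. When library sizes were taken without the 50 most abundant genes, the median of all genes moved to -0.18 and that of these genes to -0.59, and the counts were 22 lower and 5 higher. The same change turned the split of all calls from 56.6% higher to 43.3% higher. On the deposited TPM scale the medians were 0.17 for all genes and -0.24 for these, and each of the 19 lower and 6 higher genes kept its direction.

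Cdt1, which loads the helicase and is destroyed once S phase starts, read 4.70, 3.53 and 4.26 CPM in CTRL, 2.20, 2.16 and 1.24 at 1 DPA, 6.01, 5.77 and 4.85 at 3 DPA and 11.8, 6.48 and 6.87 at 5 DPA. No 2 groups overlapped, with 1 DPA lowest and 5 DPA highest, and Cdt1 was 2.22-fold lower at 1 DPA than in CTRL (log2 fold change -1.15 ± 0.27 SE, edgeR adjusted p = 0.00405). Mcm3, a subunit of the helicase ring, read 13.8, 11.3 and 7.92 CPM in CTRL, 6.30, 4.96 and 4.76 at 1 DPA, 11.4, 9.93 and 11.3 at 3 DPA and 27.7, 16.2 and 20.3 at 5 DPA. Here too the 1 DPA libraries lay below and the 5 DPA libraries above all others (log2 fold change -1.04 ± 0.23 SE, edgeR adjusted p = 0.00252 for 1 DPA). Mcm5, another subunit of the ring, read 10.2, 8.42 and 7.14 CPM in CTRL, 4.76, 4.49 and 4.85 at 1 DPA, 9.94, 9.31 and 9.13 at 3 DPA and 24.6, 14.8 and 18.01 at 5 DPA. The 1 DPA values were less than 0.4 CPM apart and all below CTRL (log2 fold change -0.87 ± 0.18 SE, edgeR adjusted p = 0.00170). Mcm4 read 16.7, 15.4 and 14.7 CPM in CTRL, 9.39, 9.08 and 7.80 at 1 DPA, 13.5, 15.2 and 14.3 at 3 DPA and 26.2, 20.4 and 19.8 at 5 DPA. Its fall at 1 DPA had the smallest SE among the helicase genes that fell (log2 fold change -0.83 ± 0.12 SE, edgeR adjusted p = 1.22e-04). Mcm2 read 21.3, 17.1 and 19.9 CPM in CTRL, 14.8, 12.2 and 14.1 at 1 DPA, 19.8, 17.4 and 21.1 at 3 DPA and 36.2, 29.0 and 27.7 at 5 DPA and moved in the same order (log2 fold change -0.51 ± 0.13 SE, edgeR adjusted p = 0.00550 for 1 DPA).

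The last 2 helicase genes went another way. Mcm6 read 26.4, 18.7 and 19.6 CPM in CTRL, 30.3, 29.0 and 37.7 at 1 DPA, 29.8, 23.7 and 29.8 at 3 DPA and 46.4, 32.6 and 35.2 at 5 DPA. All 1 DPA libraries lay above all CTRL libraries, and Mcm6 was 1.501-fold higher (log2 fold change 0.59 ± 0.17 SE, edgeR adjusted p = 0.0146), and leaving out CTRL replicate 2 or 1 DPA replicate 3 ended the call (adjusted p up to 0.112). Mcm7 read 20.4, 18.6 and 16.7 CPM in CTRL, 16.6, 16.8 and 20.2 at 1 DPA, 24.5, 19.9 and 21.0 at 3 DPA and 31.8, 24.7 and 25.0 at 5 DPA. Its 1 DPA and CTRL libraries overlapped and it was not called at 1 DPA (log2 fold change -0.06 ± 0.13 SE). Cdc6, the ATPase that works with Cdt1 in loading, read 1.92, 0.864 and 1.22 CPM in CTRL, 2.81, 3.06 and 3.52 at 1 DPA, 3.3004, 3.31 and 2.42 at 3 DPA and 6.61, 3.83 and 4.30 at 5 DPA. It rose 2.34-fold at 1 DPA (log2 fold change 1.23 ± 0.30 SE, edgeR adjusted p = 0.00489), while its partner Cdt1 fell. Orc1, the largest subunit of the origin recognition complex, was at 1.10 CPM or below in every library and was called in no comparison.

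Among the genes that fire origins, Mcm10, which helps the helicase to start unwinding, changed most. It read 1.09, 1.49 and 1.37 CPM in CTRL, 5.09, 5.33 and 8.18 at 1 DPA, 5.82, 3.20 and 3.35 at 3 DPA and 5.09, 3.29 and 3.06 at 5 DPA. Every toxin library lay above every CTRL library, and the 1 DPA mean was 4.69-fold that of CTRL (log2 fold change 2.23 ± 0.31 SE, edgeR adjusted p = 8.62e-05). Of 4 GINS subunit genes, 2 fell, Gins3 (log2 fold change -0.82 ± 0.14 SE, edgeR adjusted p = 4.77e-04) and Gins4 (log2 fold change -0.59 ± 0.11 SE, edgeR adjusted p = 6.04e-04). The other two, Gins1 (log2 fold change -0.74 ± 0.33 SE) and Gins2 (log2 fold change -0.68 ± 0.30 SE), and also Cdc45 and Cdc7 did not pass the threshold. Of 5 polymerase and primase genes 3 fell. Pola2, the second subunit of polymerase alpha, read 10.2, 8.06 and 8.74 CPM in CTRL, 6.11, 5.57 and 5.26 at 1 DPA, 8.46, 7.33 and 7.29 at 3 DPA and 12.7, 10.8 and 10.1 at 5 DPA, with all 1 DPA libraries the lowest (log2 fold change -0.67 ± 0.13 SE, edgeR adjusted p = 0.00125). Pole, the leading-strand polymerase, read 3.51, 2.496 and 2.90 CPM in CTRL, 2.28, 1.95 and 1.46 at 1 DPA, 2.81, 3.03 and 2.42 at 3 DPA and 9.67, 5.95 and 6.07 at 5 DPA, again lowest at 1 DPA (log2 fold change -0.64 ± 0.24 SE, edgeR adjusted p = 0.0437). Pole was not called once CTRL replicate 1, CTRL replicate 3, or the second or the third library of 1 DPA or of 3 DPA was dropped. Neither limma-voom nor the fit of the 2 compared groups alone called it (adjusted p up to 0.125). Prim1, a primase subunit, also fell (log2 fold change -0.43 ± 0.13 SE, edgeR adjusted p = 0.0181), though not when 1 DPA replicate 2 was dropped (adjusted p = 0.0501).

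All 6 genes of the clamp, its loader and the lagging strand were called at 1 DPA, 5 of them lower. Pcna read 24.0, 22.9 and 21.2 CPM in CTRL, 18.7, 18.5 and 17.8 at 1 DPA, 25.3, 23.6 and 27.1 at 3 DPA and 41.5, 31.7 and 33.4 at 5 DPA. The 1 DPA libraries were the lowest, 1.24-fold below CTRL (log2 fold change -0.31 ± 0.10 SE, edgeR adjusted p = 0.0238). The call ended without 1 DPA replicate 2 and with limma-voom (adjusted p = 0.0563 at most). Lig1, the ligase that joins Okazaki fragments, read 14.2, 13.99 and 15.3 CPM in CTRL, 10.6, 9.81 and 9.92 at 1 DPA, 14.1, 14.7 and 13.98 at 3 DPA and 27.7, 18.1 and 18.5 at 5 DPA. Its 3 DPA values fell inside or beside the CTRL range while all 1 DPA values lay below it (log2 fold change -0.52 ± 0.14 SE, edgeR adjusted p = 0.00904). Fen1, Rpa2 and Rfc4 fell by similar amounts (log2 fold changes -0.64 ± 0.16, -0.62 ± 0.15 and -0.62 ± 0.20). The Rfc4 call ended without 1 DPA replicate 1 and in the fit of the 2 compared groups alone (adjusted p = 0.0638 at most). Rfc3, another subunit of the same clamp loader, rose instead. It read 6.63, 6.70 and 7.98 CPM in CTRL, 11.3, 13.3 and 12.7 at 1 DPA, 8.42, 8.74 and 8.70 at 3 DPA and 10.6, 9.52 and 8.55 at 5 DPA, with 1 DPA above every other group (log2 fold change 0.81 ± 0.12 SE, edgeR adjusted p = 1.50e-04).

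The nucleotide supply was split in the same manner. Tk1, the salvage kinase for thymidine, read 3.53, 3.38 and 2.86 CPM in CTRL, 6.69, 8.23 and 8.43 at 1 DPA, 3.64, 3.39 and 2.81 at 3 DPA and 8.19, 4.94 and 6.56 at 5 DPA. It was 2.39-fold higher at 1 DPA (log2 fold change 1.26 ± 0.20 SE, edgeR adjusted p = 2.41e-04), overlapped CTRL at 3 DPA, and lay above every CTRL and 3 DPA library at 5 DPA. Rrm2, the S-phase subunit of ribonucleotide reductase, read 3.98, 4.20 and 3.06 CPM in CTRL, 2.67, 2.77 and 1.997 at 1 DPA, 3.79, 2.77 and 3.55 at 3 DPA and 9.73, 6.58 and 6.62 at 5 DPA. All its 1 DPA libraries lay below CTRL (log2 fold change -0.59 ± 0.22 SE, edgeR adjusted p = 0.0399). Dropping the first or the second CTRL library, any 1 DPA library or the third 3 DPA library ended the call. It also ended with limma-voom and in the fit of the 2 compared groups alone (adjusted p up to 0.103). Dut read 22.7, 25.3 and 25.6 CPM in CTRL, 18.4, 18.4 and 16.6 at 1 DPA, 21.3, 22.5 and 25.0 at 3 DPA and 26.1, 23.4 and 22.1 at 5 DPA. It was lower at 1 DPA than in any other group (log2 fold change -0.46 ± 0.09 SE, edgeR adjusted p = 0.00110). Rrm1 (log2 fold change -0.15 ± 0.11 SE) and Tyms (log2 fold change -0.34 ± 0.21 SE) did not pass the threshold.

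Of the G1/S regulators E2f1, an activating E2F factor, fell. It read 25.8, 18.02 and 20.1 CPM in CTRL, 15.5, 12.2 and 12.7 at 1 DPA, 15.8, 16.8 and 16.3 at 3 DPA and 29.5, 23.3 and 23.1 at 5 DPA. All 1 DPA libraries lay below all CTRL libraries (log2 fold change -0.66 ± 0.14 SE, edgeR adjusted p = 0.00237). Ccne1, cyclin E1, read 2.10, 2.57 and 2.28 CPM in CTRL, 2.53, 2.27 and 6.18 at 1 DPA, 3.53, 2.86 and 2.33 at 3 DPA and 4.10, 2.95 and 3.81 at 5 DPA. A single library, 1 DPA replicate 3, stood at more than double any other 1 DPA value, and Ccne1 was not called (log2 fold change 0.65 ± 0.34 SE, edgeR adjusted p = 0.126). Ccne2, cyclin E2, read 4.16, 4.56 and 5.06 CPM in CTRL, 5.20, 3.96 and 5.01 at 1 DPA, 5.71, 6.14 and 5.68 at 3 DPA and 7.31, 6.19 and 6.01 at 5 DPA, with 1 DPA and CTRL overlapping (log2 fold change 0.04 ± 0.15 SE). E2f2 was not called (log2 fold change -0.06 ± 0.16 SE). In chromatin assembly Chaf1a, which deposits histones behind the fork, fell (log2 fold change -0.85 ± 0.25 SE, edgeR adjusted p = 0.0128), and its partner Chaf1b did not pass the threshold (log2 fold change -0.51 ± 0.24 SE). Slbp, which protects histone messenger RNA, read 19.5, 17.98 and 19.2 CPM in CTRL, 20.9, 22.0 and 22.2 at 1 DPA, 21.6, 22.4 and 23.3 at 3 DPA and 25.0, 22.2 and 22.4 at 5 DPA. The toxin libraries all lay above CTRL, by a small margin at 1 DPA (log2 fold change 0.20 ± 0.07 SE, edgeR adjusted p = 0.0364). Dropping any CTRL library, the second or the third 1 DPA library, or the first or the second 3 DPA library ended the call. It also ended with only 2 groups compared, a replicate block, no filter on low counts, or library sizes without the 50 most abundant genes (adjusted p up to 0.448 over all alternatives).

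**Figure D3:**
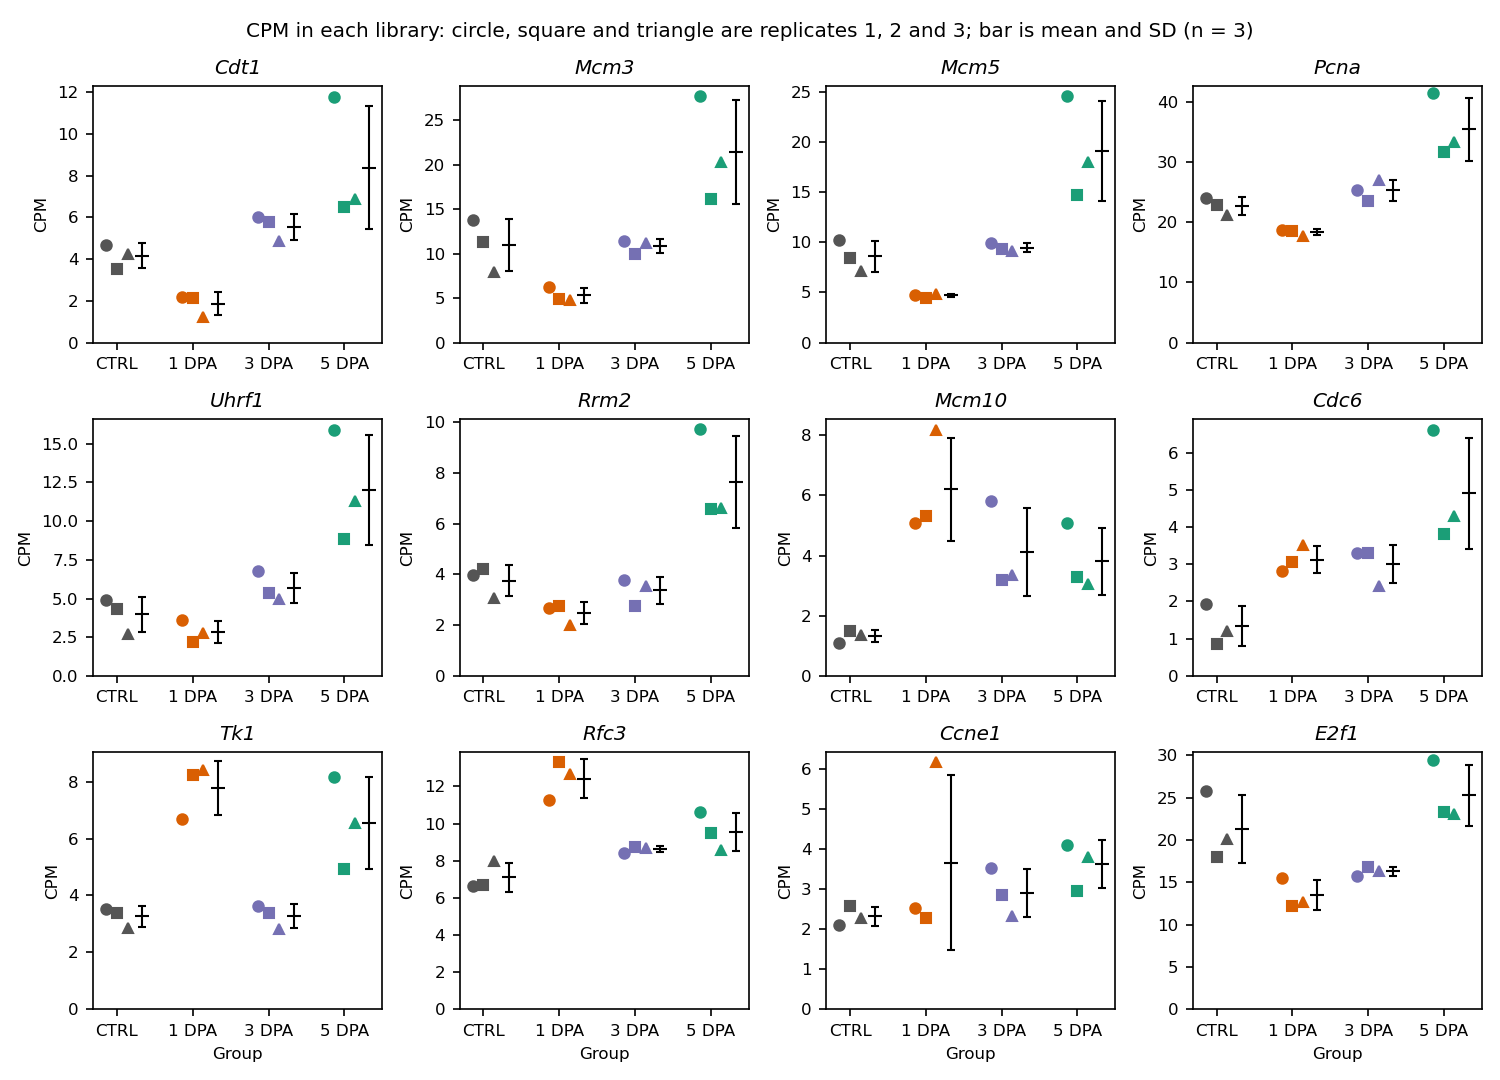
CPM in each library for 12 genes, with group mean and SD (n = 3) as black bars, each axis starting at 0. Cdt1, Mcm3, Mcm5, Pcna and Rrm2 dip at 1 DPA and peak at 5 DPA, Mcm10, Tk1 and Rfc3 are highest at 1 DPA, and the Ccne1 mean at 1 DPA is raised by 1 library.

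Markers of several cell types moved with the 1 DPA comparison, while none of 6 markers of other islet endocrine cells was called. The 10 macrophage markers summed to 104 to 127 CPM at 1 DPA against 142 to 590 in CTRL, with 9 called lower and none at 0. The 8 stromal markers summed to 550 to 693 against 507 to 1761 CPM, with 1 called lower, and the 7 endothelial markers to 656 to 710 against 826 to 1008, with 4 lower. The 8 beta cell markers summed to 105286 to 161642 CPM against 181689 to 202223, with 6 lower. Of 8 lymphocyte markers Cd3e was at 0 in every library and the other 7 were detected in at least 1. That list summed to 11.71 to 33.1 CPM in CTRL, 9.92 to 11.9 at 1 DPA, 9.25 to 24.6 at 3 DPA and 8.17 to 48.6 at 5 DPA, with 1 marker called lower at 1 DPA. The part of these cells in the lower replication transcripts was not tested.

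**Figure D4:**
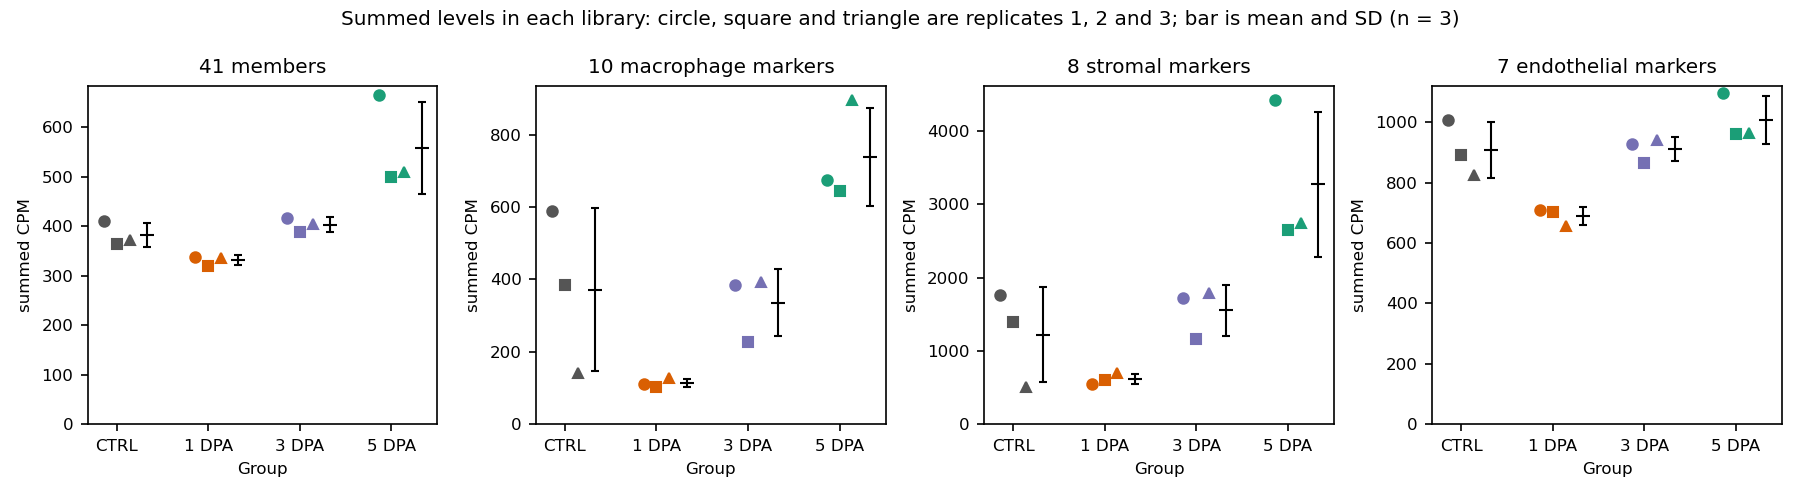
Summed CPM of the 41 genes and of 3 lists of cell type markers in each library, with group mean and SD (n = 3), each axis starting at 0. The group means of all 4 sums drawn are lowest at 1 DPA and highest at 5 DPA, and CTRL replicate 3 lies below the other controls for the macrophage and stromal lists. Of the lists not drawn, the lymphocyte list had the same order. The beta cell and acinar lists had their highest mean in CTRL, and the list of other islet endocrine cells had it at 3 DPA.

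At 3 DPA few of these genes were called against control. Against CTRL 3 of 41 were higher and none lower (10.2% and 2.37% of all genes tested), with a median log2 fold change of 0.03 beside -0.01 over all genes. Mcm10 stayed 3.12-fold above CTRL (log2 fold change 1.64 ± 0.30 SE, edgeR adjusted p = 0.00330) and Cdc6 2.25-fold (log2 fold change 1.17 ± 0.30 SE, edgeR adjusted p = 0.0222), the latter call ending at adjusted p up to 0.0980 in the settings named below. Slbp was 1.19-fold higher (log2 fold change 0.25 ± 0.07 SE, edgeR adjusted p = 0.0410). Among the alternative settings that call held only with DESeq2, with limma-voom and without 5 DPA replicate 1 (adjusted p up to 0.190). For the absent falls, edgeR, DESeq2 and limma-voom each called 0. An unadjusted edgeR p under 0.05, in either direction, was found for 6 of the 41, beside 4324 of all 17294 genes tested. The count of rises was 1, Mcm10 alone, without CTRL replicate 2 or 3 or without 3 DPA replicate 1 or 2. Without CTRL replicate 2, E2f1 was called lower. The log2 fold changes of Tk1 (log2 fold change 0.01 ± 0.20 SE), Mcm2 (log2 fold change 0.00 ± 0.12 SE) and Mcm3 (log2 fold change -0.01 ± 0.22 SE) lay within 1 SE of 0. With DESeq2 the share of all calls that were higher was 67.5% in place of 81.2%.

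From 1 to 3 DPA more of the genes rose than fell. Against 1 DPA 17 were higher at 3 DPA, 2 lower and 22 not called, where 20.4% and 24.7% of all genes were. Cdt1 rose 2.96-fold (log2 fold change 1.56 ± 0.27 SE, edgeR adjusted p = 7.22e-04), Mcm3 2.04-fold (log2 fold change 1.03 ± 0.23 SE, edgeR adjusted p = 0.00349) and Mcm5 2.01-fold (log2 fold change 1.01 ± 0.18 SE, edgeR adjusted p = 8.45e-04). The others that rose were Mcm2, Mcm4, Gins3, Gins4, Pola2, Pcna, Fen1, Rfc4, Rpa2, Lig1, Dut, Uhrf1, Chaf1a and Chaf1b. Dut moved least (log2 fold change 0.37 ± 0.09 SE). Tk1 fell 2.37-fold (log2 fold change -1.25 ± 0.20 SE, edgeR adjusted p = 3.73e-04) and Rfc3 1.44-fold (log2 fold change -0.53 ± 0.12 SE, edgeR adjusted p = 0.00375). With library sizes taken without the 50 most abundant genes 23 rose and 2 fell, and the share of all calls that were higher went from 45.3% to 59.5%. Without 3 DPA replicate 1 the calls of Uhrf1, Chaf1a, Chaf1b and Pola2 ended. They also ended without 1 DPA replicate 2 (Uhrf1 and Chaf1b) or 1 DPA replicate 3 (Chaf1a, Chaf1b and Pola2), with adjusted p up to 0.0535 for Uhrf1, 0.0525 for Chaf1a, 0.0581 for Chaf1b and 0.0665 for Pola2. Markers of other cells rose over the same step. Of the macrophage markers 10 of 10 were higher at 3 than at 1 DPA (summed 228 to 393 against 104 to 127 CPM), of the stromal 6 of 8 (1157 to 1794 against 550 to 693 CPM) and of the endothelial 5 of 7 (866 to 941 against 656 to 710 CPM). Of the beta cell markers 4 of 8 were higher. Their part in the rise of the replication genes was not tested.

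At 5 DPA all of the replication genes called against control were higher. Of the 41 genes 21 were higher than in CTRL and none lower, where 5.87% of all genes tested were higher and 2.67% lower, and 40 of 41 log2 fold changes were above 0, with a median of 0.56 beside 0.01 over all genes. Licensing led: 8 of its 9 genes rose, all but Orc1. Uhrf1, a factor that carries DNA methylation through replication, and the chromatin assembly genes Chaf1a and Chaf1b rose too, as did Pole, Pola1, Pcna, Fen1, Lig1, Rfc3, Rrm2, Tk1, Mcm10 and Slbp. None of the 4 G1/S regulators passed the threshold. For the absent falls, edgeR, DESeq2 and limma-voom each called 0. An unadjusted edgeR p under 0.05, in either direction, was found for 30 of 41 genes, beside 4249 of all 17294 genes tested.

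Cdc6 showed the largest rise at 5 DPA, 3.69-fold over CTRL (log2 fold change 1.88 ± 0.30 SE, edgeR adjusted p = 0.00461). Uhrf1 read 4.91, 4.32 and 2.71 CPM in CTRL, 3.61, 2.16 and 2.76 at 1 DPA, 6.79, 5.35 and 4.94 at 3 DPA and 15.9, 8.86 and 11.3 at 5 DPA. Every 5 DPA library lay above every other library, and Uhrf1 was 3.03-fold above CTRL (log2 fold change 1.60 ± 0.28 SE, edgeR adjusted p = 0.00679). Mcm10 was 2.89-fold higher (log2 fold change 1.53 ± 0.30 SE, edgeR adjusted p = 0.0121), Pole 2.44-fold (log2 fold change 1.28 ± 0.24 SE, edgeR adjusted p = 0.00892) and Mcm5 2.22-fold (log2 fold change 1.15 ± 0.18 SE, edgeR adjusted p = 0.00382). In the helicase ring the rises of Mcm3 (log2 fold change 0.96 ± 0.22 SE), Mcm6 (log2 fold change 0.82 ± 0.17 SE), Mcm2 (log2 fold change 0.67 ± 0.12 SE), Mcm7 (log2 fold change 0.55 ± 0.13 SE) and Mcm4 (log2 fold change 0.50 ± 0.12 SE) spanned a range of log2 fold changes from 0.50 to 0.96. Cdt1 (log2 fold change 1.01 ± 0.26 SE), Rrm2 (log2 fold change 1.03 ± 0.21 SE), Tk1 (log2 fold change 1.01 ± 0.20 SE) and Chaf1a (log2 fold change 1.01 ± 0.24 SE) each went up about as much as Mcm3. The smallest called rises were those of Slbp (log2 fold change 0.30 ± 0.07 SE, edgeR adjusted p = 0.0268) and Rfc3 (log2 fold change 0.43 ± 0.12 SE, edgeR adjusted p = 0.0464). Cyclin E2 came close to the threshold (log2 fold change 0.50 ± 0.15 SE, edgeR adjusted p = 0.0582), with all 5 DPA libraries above all CTRL libraries. Cyclin E1 (log2 fold change 0.64 ± 0.34 SE), E2f1 (log2 fold change 0.25 ± 0.14 SE), E2f2 (log2 fold change 0.27 ± 0.16 SE), Gins3 (log2 fold change 0.03 ± 0.14 SE) and Dut (log2 fold change -0.04 ± 0.09 SE) were not called.

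These calls depended on single libraries. The first 5 DPA replicate was the highest of the 3 for all 41 genes. How often it was the highest over all genes tested was not counted, so no share stands beside this. Without that library 6 of the 41 were called against CTRL: Cdc6, Uhrf1, Pole, Mcm5, Mcm2 and Pcna. Without CTRL replicate 2 the count was 9 and without CTRL replicate 3 it was 11, and those same 6 were among both. The calls of Pola1 and Rfc3 held with DESeq2, limma-voom, RLE scaling and library sizes taken without the 50 most abundant genes. Of the other alternatives, Pola1 was called only with the replicate block and Rfc3 only without CTRL replicate 3. Over all genes the calls went from 1477 to 462 without 5 DPA replicate 1. Among the 5 DPA libraries replicate 1 also had the highest stromal sum, 4420 CPM against 2648 and 2745. The endothelial and other islet endocrine sums were highest in it too. Its acinar, beta cell and lymphocyte sums were the lowest, and its macrophage sum lay between the others (675 CPM against 646 and 895). The macrophage markers summed to 646 to 895 CPM at 5 DPA (2 of 10 higher than in CTRL), the stromal markers to 2648 to 4420 (2 of 8 higher) and the endothelial markers to 961 to 1099 (none of 7 higher). The beta cell markers summed to 152118 to 205924 CPM, with 4 of 8 lower than in CTRL. The part of these cells in the higher replication transcripts was not tested.

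**Figure D5:**
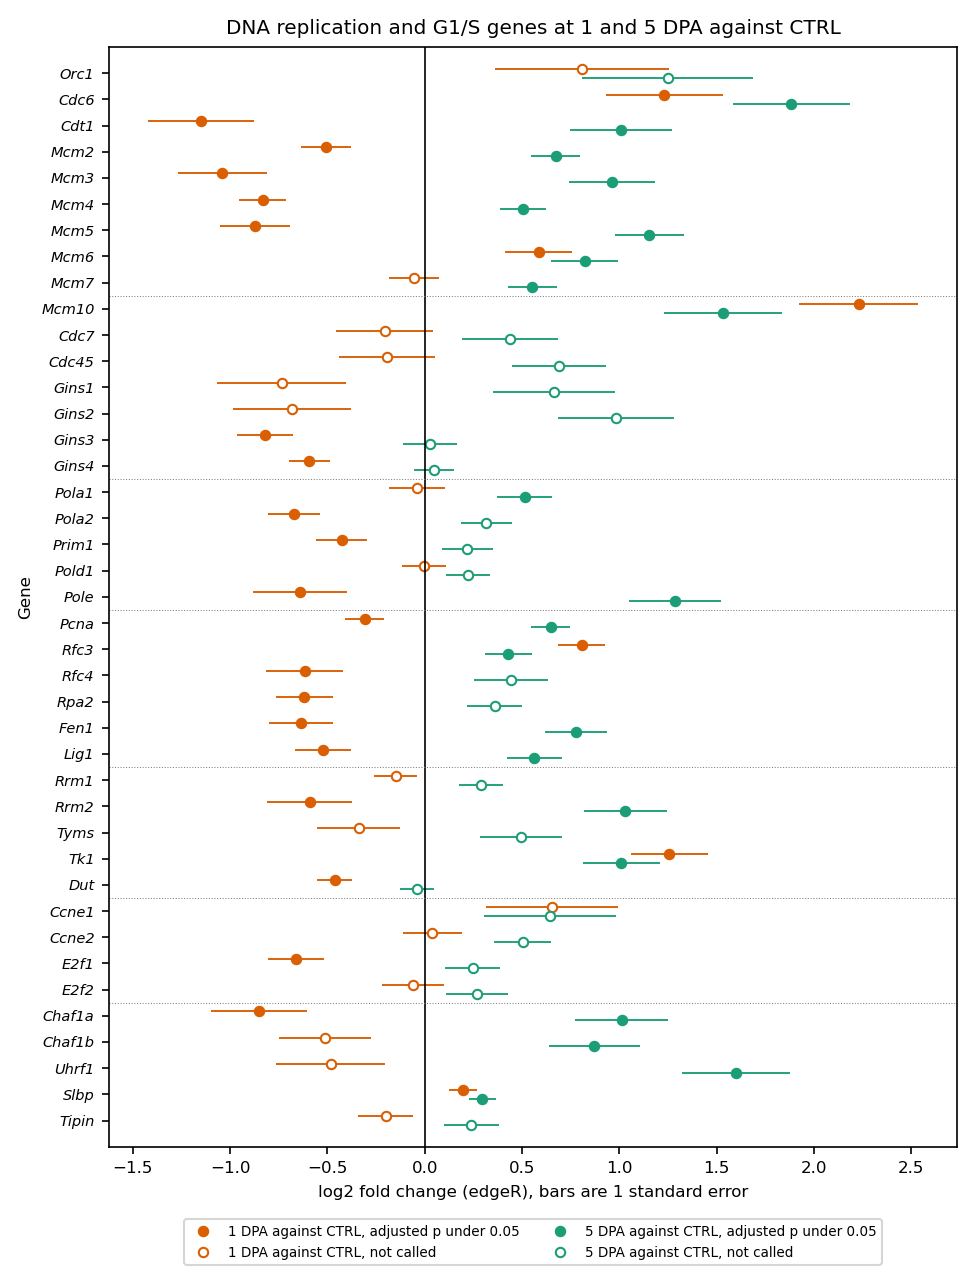
edgeR log2 fold change against CTRL of each of the 41 genes at 1 DPA (orange) and 5 DPA (green), with bars of 1 standard error and filled points for adjusted p under 0.05. Filled orange points lie mostly left of 0 (19 genes) and filled green points all lie right of it (21 genes); both contrasts use the same 3 CTRL libraries.

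Between 3 and 5 DPA 12 of the 41 genes rose and none fell, where 0.711% of all genes tested rose and 2.46% fell. They were Mcm2, Mcm3, Mcm4, Mcm5, Pola2, Pole, Pcna, Lig1, Rrm2, Tk1, E2f1 and Chaf1a. Pole rose 2.63-fold (log2 fold change 1.39 ± 0.24 SE, edgeR adjusted p = 0.0172), Rrm2 2.26-fold (log2 fold change 1.18 ± 0.22 SE, edgeR adjusted p = 0.0211) and Mcm5 2.02-fold (log2 fold change 1.01 ± 0.18 SE, edgeR adjusted p = 0.0181). The smallest rises were those of Pcna (log2 fold change 0.49 ± 0.10 SE, edgeR adjusted p = 0.0286), Pola2 (log2 fold change 0.54 ± 0.13 SE) and Lig1 (log2 fold change 0.59 ± 0.14 SE). The calls did not survive the loss of single libraries. The count was 0 without 3 DPA replicate 1 or 5 DPA replicate 1, 1 when 3 DPA replicate 3 was dropped, 2 on dropping 5 DPA replicate 2, and 3 on dropping either 3 DPA replicate 2 or 5 DPA replicate 3. With the replicate number as a block, 13 rose, among them 11 of the 12: Lig1 was lost and Uhrf1 and Gins2 were gained. Over all genes the calls went from 548 to 33 without 5 DPA replicate 1. edgeR, DESeq2 and limma-voom called no member lower. An unadjusted edgeR p under 0.05, in either direction, was found for 25 of 41, beside 3029 of all 17294 genes tested. With DESeq2 the share of all calls that were higher was 35.3% in place of 22.4%. Over the same step 2 of 10 macrophage markers and 1 of 8 stromal markers were higher, and none of 7 endothelial markers.

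Across the whole swing, 5 against 1 DPA, 31 of the 41 genes were higher and 1 lower, where 26.3% and 29.8% of all genes were, and the median log2 fold change was 0.85 beside 0.01 over all genes. Markers of other cells were higher in this contrast too, with 10 of 10 macrophage, 8 of 8 stromal and 7 of 7 endothelial markers called, and 3 of 8 beta cell markers higher and 1 lower. Their part in the difference was not tested. Cdt1 was 4.47-fold higher (log2 fold change 2.16 ± 0.28 SE, edgeR adjusted p = 5.26e-05), Uhrf1 4.23-fold (log2 fold change 2.08 ± 0.28 SE, edgeR adjusted p = 8.50e-05), Mcm5 4.07-fold (log2 fold change 2.02 ± 0.18 SE, edgeR adjusted p = 4.65e-06) and Mcm3 4.004-fold (log2 fold change 2.001 ± 0.23 SE, edgeR adjusted p = 2.73e-05). Of the origin firing genes 6 of 7 rose, Gins2 the most (log2 fold change 1.66 ± 0.31 SE, edgeR adjusted p = 8.22e-04). E2f1 rose 1.88-fold (log2 fold change 0.91 ± 0.14 SE, edgeR adjusted p = 2.55e-04). Rfc3 was the gene that was lower (log2 fold change -0.38 ± 0.12 SE, edgeR adjusted p = 0.0176). It no longer passed after removal of the second or the third 1 DPA library or the third 5 DPA library. Nor did it pass with no filter on low counts or with library sizes without the 50 most abundant genes (adjusted p up to 0.140 over all alternatives). Mcm10 (log2 fold change -0.70 ± 0.29 SE), Tk1 (log2 fold change -0.25 ± 0.19 SE), Mcm6 (log2 fold change 0.24 ± 0.17 SE), Cdc6 (log2 fold change 0.65 ± 0.29 SE) and Slbp (log2 fold change 0.10 ± 0.07 SE) did not pass the threshold in this contrast. Without 5 DPA replicate 1 the counts were 28 higher and 2 lower, and the calls of Cdc7, Ccne2 and Tipin ended (adjusted p up to 0.156, 0.0826 and 0.0897 over all settings). With library sizes taken without the 50 most abundant genes they were 35 and 0, and the share of all calls that were higher went from 46.9% to 60.7%. Exact E2F motifs were held by 4 of 16 windows of the genes lower at 1 DPA, 3 of 6 of those higher at 1 DPA and 8 of 19 of those higher at 5 DPA than in CTRL.

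Of the genes not yet given by library, the origin firing genes Cdc45, Gins1 and Gins2 had their lowest mean at 1 DPA and their highest at 5 DPA. Cdc45, which joins the helicase at firing, averaged 3.14 ± 0.519 CPM in CTRL, 2.75 ± 0.720 at 1 DPA, 2.76 ± 0.382 at 3 DPA and 5.06 ± 1.38 at 5 DPA (SD, n = 3). Gins1 averaged 0.824 ± 0.215, 0.493 ± 0.0653, 0.896 ± 0.0422 and 1.30 ± 0.456 CPM in the same order of groups, and Gins2 7.23 ± 2.63, 4.501 ± 1.78, 6.54 ± 0.891 and 14.3 ± 1.51. All 3 were called for 5 against 1 DPA and none against CTRL. The flap nuclease gene Fen1 averaged 9.98 ± 1.28 CPM in CTRL, 6.42 ± 0.267 at 1 DPA, 12.5 ± 1.31 at 3 DPA and 17.1 ± 4.10 at 5 DPA, and it was called in both directions against CTRL (log2 fold change 0.78 ± 0.16 SE, edgeR adjusted p = 0.0145 at 5 DPA). Rrm1, the large subunit of ribonucleotide reductase, went from 25.7 ± 2.36 CPM at 1 DPA to 34.8 ± 6.27 at 5 DPA (log2 fold change 0.44 ± 0.11 SE, edgeR adjusted p = 0.00603). Tyms, which makes thymidylate, went from 4.05 ± 0.686 to 7.23 ± 1.52 CPM (log2 fold change 0.83 ± 0.21 SE, edgeR adjusted p = 0.00576). Pold1 is the catalytic subunit of polymerase delta; it averaged 16.2 ± 1.36, 16.1 ± 1.92, 16.0 ± 0.819 and 18.9 ± 2.27 CPM in the 4 groups and was called in no comparison.

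A longer list held 72 further genes for licensing control, firing, polymerases, nucleotide supply, G1/S control and checkpoints, all of them tested. At 1 DPA 20 (27.8%) were higher and 19 (26.4%) lower than in CTRL, near the 29.2% and 22.4% of all genes tested. At 3 DPA 6 (8.33%) were higher and 1 (1.39%) lower, beside 10.2% and 2.37% of all genes. At 5 DPA 16 (22.2%) were higher and 1 (1.39%) lower, beside 5.87% and 2.67%. From 1 to 5 DPA 37 (51.4%) rose and 17 (23.6%) fell, beside 26.3% and 29.8%. Among them, 4 of 5 origin recognition genes rose at 1 DPA. Orc4 read 22.6, 24.5 and 25.0 CPM in CTRL, 62.8, 65.1 and 70.5 at 1 DPA, 41.001, 38.5 and 32.7 at 3 DPA and 29.6, 27.9 and 32.8 at 5 DPA, highest at 1 DPA (log2 fold change 1.46 ± 0.09 SE, edgeR adjusted p = 3.50e-07). Orc6 rose as well (log2 fold change 1.06 ± 0.10 SE, edgeR adjusted p = 4.58e-06), as did Orc2 and Orc5, while Orc3 did not pass the threshold. Donson, which helps to assemble the active helicase, read 6.65, 5.78 and 6.76 CPM in CTRL, 24.1, 23.6 and 28.3 at 1 DPA, 7.72, 8.43 and 7.62 at 3 DPA and 8.55, 7.53 and 9.76 at 5 DPA. It rose 3.96-fold at 1 DPA with no overlap with any other group (log2 fold change 1.98 ± 0.12 SE, edgeR adjusted p = 2.59e-07). Topbp1, which brings Cdc45 and GINS to origins, read 23.2, 22.0 and 22.2 CPM in CTRL, 14.7, 13.9 and 13.0 at 1 DPA, 21.2, 22.1 and 20.5 at 3 DPA and 34.1, 26.8 and 29.4 at 5 DPA. It had the order of Mcm2 to Mcm5, lowest at 1 DPA (log2 fold change -0.70 ± 0.09 SE, edgeR adjusted p = 5.39e-05) and highest at 5 DPA (log2 fold change 0.42 ± 0.09 SE, edgeR adjusted p = 0.0157).

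Of 23 further G1/S regulators in this list, 7 were higher and 9 lower at 1 DPA than in CTRL, beside 29.2% and 22.4% of all genes tested. The cyclin gene Ccnd2 was among those lower (855, 807 and 659 CPM against 883, 1049 and 951 in CTRL). Ccnd1, cyclin D1, which drives phosphorylation of the retinoblastoma proteins, read 120.0, 116 and 123 CPM in CTRL, 68.0, 72.8 and 65.7 at 1 DPA, 113, 147 and 135 at 3 DPA and 128, 106 and 117 at 5 DPA. Its 1 DPA libraries lay below all others (log2 fold change -0.80 ± 0.09 SE, edgeR adjusted p = 2.74e-05). Of the retinoblastoma family, Rb1 read 37.2, 41.6 and 40.5 CPM in CTRL, 53.3, 55.3 and 56.3 at 1 DPA, 40.7, 40.9 and 42.2 at 3 DPA and 40.7, 39.7 and 41.2 at 5 DPA and rose at 1 DPA (log2 fold change 0.47 ± 0.06 SE, edgeR adjusted p = 3.09e-05), and Rbl2 read 53.0, 55.4 and 52.4 CPM in CTRL, 35.1, 36.6 and 35.7 at 1 DPA, 43.6, 49.4 and 50.8 at 3 DPA and 47.8, 49.6 and 51.8 at 5 DPA and fell (log2 fold change -0.58 ± 0.07 SE, edgeR adjusted p = 1.71e-05). Cdkn1a, the inhibitor p21, read 41.8, 42.2 and 28.3 CPM in CTRL, 104, 93.5 and 87.1 at 1 DPA, 309.6, 176 and 371 at 3 DPA and 114, 131 and 149 at 5 DPA. It was above CTRL at all 3 times and peaked at 3 DPA (log2 fold change 2.93 ± 0.27 SE, edgeR adjusted p = 7.64e-05), and was still 3.51-fold above CTRL at 5 DPA (log2 fold change 1.81 ± 0.26 SE, edgeR adjusted p = 0.00413), when 36 of the 41 replication genes had their highest mean. Rnaseh2a, part of the enzyme that removes RNA from DNA, also had its highest mean at 3 DPA (log2 fold change 0.99 ± 0.15 SE, edgeR adjusted p = 7.41e-04). Tfdp2, a partner of E2F proteins, was the gene that fell at 3 DPA (log2 fold change -0.31 ± 0.08 SE, edgeR adjusted p = 0.0225), lost after removal of the third CTRL library or the second or the third 3 DPA library (adjusted p up to 0.0783).

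At 5 DPA the S-phase cyclin Ccna2 rose 2.52-fold (log2 fold change 1.33 ± 0.25 SE, edgeR adjusted p = 0.00892), from 5.15, 3.67 and 4.15 CPM in CTRL to 15.7, 7.67 and 9.32. Hells, a chromatin remodeller, rose 2.12-fold (log2 fold change 1.08 ± 0.20 SE, edgeR adjusted p = 0.00918). Rrm2b, the p53-induced subunit of ribonucleotide reductase, was the gene that fell (log2 fold change -0.29 ± 0.07 SE, edgeR adjusted p = 0.0313), against a rise of its S-phase counterpart Rrm2; dropping the second or the third CTRL library or any 5 DPA library ended the Rrm2b call (adjusted p up to 0.113). The proliferation marker Mki67 read 12.3, 8.16 and 8.69 CPM in CTRL, 6.74, 5.38 and 2.82 at 1 DPA, 7.79, 8.51 and 6.32 at 3 DPA and 33.8, 16.4 and 16.99 at 5 DPA. Its 5 DPA libraries lay above all others, and 5 DPA replicate 1 was the highest at 33.8 CPM, yet Mki67 was not called against CTRL (log2 fold change 1.21 ± 0.34 SE, edgeR adjusted p = 0.0558). It was called lower at 1 DPA (log2 fold change -0.96 ± 0.35 SE, edgeR adjusted p = 0.0415), lost on dropping the first or the third CTRL library, or the second or the third library of 1 DPA or of 3 DPA (adjusted p up to 0.113). At 5 DPA it was called higher than at 1 DPA (log2 fold change 2.16 ± 0.36 SE, edgeR adjusted p = 4.97e-04). Top2a, a topoisomerase of cycling cells, read 11.1, 6.84 and 7.18 CPM in CTRL, 6.47, 4.75 and 3.55 at 1 DPA, 9.35, 8.99 and 6.63 at 3 DPA and 36.0, 15.7 and 20.02 at 5 DPA. It was 2.85-fold above CTRL at 5 DPA (log2 fold change 1.51 ± 0.33 SE, edgeR adjusted p = 0.0207), lost on dropping 5 DPA replicate 1 or the second or the third CTRL library (adjusted p up to 0.0926).

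Whether the authors' counting used strand is not stated in the sources used here, and some of these genes share exon bases with a gene on the other strand. Chaf1a shares 4648 bases with Ubxn6, whose mean level was 83.6 CPM against 3.96 for Chaf1a, and Gins2 shares 2758 bases with Gse1 (333 against 8.13 CPM). Rfc4 shares 194 bases with Eif4a2 (503 against 2.53 CPM), Ccne2 609 with Ints8 (36.8 against 5.42 CPM) and Cdc45 209 with Ufd1 (52.5 against 3.43 CPM). For these 5 genes reads of the 2 strands may not have been separated, which was not tested.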

How the data were processed

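RNA from islets was sequenced after RNeasy extraction and QIAseq stranded mRNA library preparation, per the labels' protocols. The authors deposited raw counts per gene and TPM for each library in 1 table; the submitters' processing notes name mm10, while aligner, counter, annotation and strand use are not stated in the sources used here. The counts were tested as deposited. TPM served only for levels across genes and for 1 check of scale, and 24 other columns of per-sample values were not used.

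Differences were tested with edgeR 4.0.16 (R 4.3.3): TMM scaling, filterByExpr with a minimum count of 10, robust quasi-likelihood F-tests over all 12 libraries with no covariate, and Benjamini-Hochberg adjustment over 17294 genes, called at adjusted p under 0.05. CPM is the count over the TMM-scaled library size. Standard errors are the log2 fold change over the square root of F. The procedure was first tested on simulated counts. The 41 genes, the further pathway genes and the marker lists were chosen with earlier results of these data known. Genes with values in every library were the 3 largest and 3 smallest log2 fold changes among those called in each comparison with CTRL and between successive times, plus Mcm2 to Mcm7, Pcna, Ccne1, Ccne2, E2f1, Rrm2, Tk1, Cdt1 and Cdc6. Of the further pathway genes, up to 3 called per direction of smallest p in each comparison with CTRL were named, plus Mki67, Top2a, Ccnd1, Cdkn1a and Rb1. Lig1, Pole, Pola2, Dut, Uhrf1, Slbp and Rfc3 entered by the first rule. Other genes given a fold change or mean were picked to show their role after their values were seen.

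Deviations from the group means in same-numbered replicates of 3 and 5 DPA had correlations of 0.156, 0.187 and 0.326. In no other pair of groups were all 3 above 0.1, and the lowest was -0.465, for replicate 3 of CTRL and 5 DPA. Differently numbered libraries were not compared, so these values have no reference and cannot show whether replicates were paired. No label names such a pairing, and the main fit did not use it. A block for the replicate number, fitted as an alternative, covered all 12 libraries. The alternatives were DESeq2 1.42.0, limma-voom (limma 3.58.1), fits of the 2 compared groups alone, a replicate block, RLE scaling, no minimum count, library sizes that exclude the 50 most abundant genes, and the loss of each library in turn. An adjusted p given as up to, or at most, a value is the largest over all these alternatives. Gene positions and exon overlaps came from GENCODE M21 and promoters from RefSeq.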

Additional observations from a re-analysis of the deposited data

How the results depend on the processing

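The 112 calls made for the 41 genes in the main fit were recomputed in the alternatives. Of these 2128 values, 1885 kept the call, 243 lost it and 0 changed direction. Genes and comparisons not called in the main fit were left out, so gained calls are not counted here. Of 112 calls, 68 held in every setting: 18 for 1 DPA, 1 for 3 DPA and 6 for 5 DPA against CTRL, 15 for 3 against 1 DPA, 0 for 5 against 3 DPA and 28 for 5 against 1 DPA. With only the 2 groups compared, 1 gene was higher at 3 DPA and 7 at 5 DPA than in CTRL. Leaving out a library gave 1 to 3 genes higher and 0 to 1 lower at 3 DPA, 6 to 20 higher at 5 DPA, 0 to 13 higher from 3 to 5 DPA and 0 to 2 lower from 1 to 5 DPA. The last count was 2 with DESeq2, 0 without a filter on low counts and 0 with library sizes taken without the 50 most abundant genes. The replicate block, fitted over all 12 libraries, gave 13 genes higher for 5 against 3 DPA. In the other comparisons no count of these genes moved by over 1.5 times under it. Where a cause is not named, the cause was not tested. Orc1, at 1.10 CPM or below in every library, was called in no comparison, and at this depth small differences of such genes may not be detectable.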
